A study of Mus musculus with 6 samples.

Results

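Matrix metalloproteinases were examined in RNA sequencing of mouse hearts after myocardial infarction (MI). The 10 genes *Mmp2*, *Mmp3*, *Mmp8*, *Mmp9*, *Mmp11*, *Mmp12*, *Mmp13*, *Mmp14*, *Mmp15* and *Mmp19* were taken by name from a given list and matched to their NCBI gene numbers among the 17441 genes listed in any library. Values are FPKM, that is fragments per kilobase of gene and scaled to the number of mapped fragments. Levels can thus be set side by side between genes of a library, while differences between libraries depend on that scaling, whose effect is given with the results. All 10 genes passed the filter used for testing, which asked for an FPKM of 1 or more in 2 or more of the 6 libraries, together with 13120 genes in total. The tissue came from male mice of 12 weeks, on a C57BL/6 background, 3 days after surgery, and was the part of the heart below the ligature. The groups were wild-type mice after a sham operation without ligation (WT Sham), wild-type mice in which the left anterior descending coronary artery had been tied off (WT MI) and whole-body *Card9* knockout mice given the same surgery (*Card9* KO MI), with 2 libraries each. Sham-operated *Card9* KO mice were not analysed here, so that genotype and infarction cannot be told apart between *Card9* KO MI and WT Sham. Differences were tested with limma on log2(FPKM + 1) across all genes tested, with Benjamini-Hochberg adjustment over all of them, and a gene was called at an adjusted p below 0.05. An exact permutation of 2 libraries against 2 has 0.333 as its smallest p. The smaller p-values below therefore rest on the limma model. It pools the spread between libraries over the 3 groups and draws it toward that of genes of similar level. They thus do not measure the spread of the compared libraries alone, and nothing in the labels says whether a library was 1 mouse or a pool.

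Matrix metalloproteinases are zinc-dependent enzymes that cut collagens, elastin, fibronectin and other proteins of the extracellular matrix, and also release or inactivate chemokines and growth factors. Most are secreted as inactive proenzymes that other proteases open, and the tissue inhibitors of metalloproteinases (TIMPs) block the active forms. In the infarcted heart they are known for clearing the damaged matrix during the inflammatory phase, before a collagen scar replaces it. Neutrophils store collagenase and gelatinase in granules made earlier in the bone marrow, so their transcripts in tissue are no direct measure of the enzyme.

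*Card9*, the adaptor gene targeted in the knockout, did not fall in the libraries that carry the knockout label. Its FPKM was 0.99 and 1.03 in the sham libraries, 3.39 and 5.08 in the WT MI libraries, and 9.85 and 6.94 in those labelled *Card9* KO MI. Both libraries with the knockout label lay above both WT MI libraries. The log2 fold change of 0.85 against WT MI (95% interval 0.31 to 1.38) was not called (adjusted p = 0.112). *Card9* shares exon bases with *Gm13562* on the other strand, and whether counting used strand is not given in the sources used here. A partly deleted gene can still give transcripts, and the position of the deletion was not given in the sources used here, so this value does not check the labels. Every direction below between the infarct groups rests on the label. The libraries held an estimated 3012129 to 4270142 fragments, and for a transcript of 2 kb, 3 fragments were worth 0.351 to 0.498 FPKM. Cardiomyocyte markers made up a summed 68895 and 70222 FPKM in WT Sham, 39613 and 41074 in the WT MI libraries and 32834 and 38044 in those labelled *Card9* KO MI, so the labelled tissue showed its muscle markers in all 6 libraries. The median log2 fold change of all genes was 0.19 between WT MI and WT Sham, 0.04 between *Card9* KO MI and WT MI, and 0.24 for *Card9* KO MI against WT Sham.

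In the sham-operated heart *Mmp15* and *Mmp2* had the largest shares of the summed FPKM of the family. *Mmp14* had the largest single share in each infarct library. The summed FPKM of the 10 genes was 91.33 and 95.81 in the sham libraries, 182.62 and 194.59 in the WT MI libraries, and 230.9 and 197.43 in those labelled *Card9* KO MI. Infarcted libraries lay above the sham libraries without overlap, and those labelled *Card9* KO MI lay above those of WT MI. Without *Mmp14*, the order of the infarct groups turned, with sums of 133.49 and 131.33 in WT MI against 117.72 and 104.87 in *Card9* KO MI. *Mmp15* alone made up 51.5% and 53.8% of the sum in WT Sham, 18.9% and 20.6% in the WT MI libraries and 13.2% and 16.3% in those labelled *Card9* KO MI. *Mmp2* held 27.2% and 27.5% in WT Sham, 14.9% and 17.9% in the WT MI libraries and 16.5% and 19.4% in those labelled *Card9* KO MI. *Mmp14* went from 12.9% and 10.3% in WT Sham to 26.9% and 32.5% in the WT MI libraries and 49.0% and 46.9% in those labelled *Card9* KO MI. The share of *Mmp9* was 13.6% and 5.22% in the WT MI libraries and 1.41% and 1.49% in those labelled *Card9* KO MI.

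**Figure D1:**
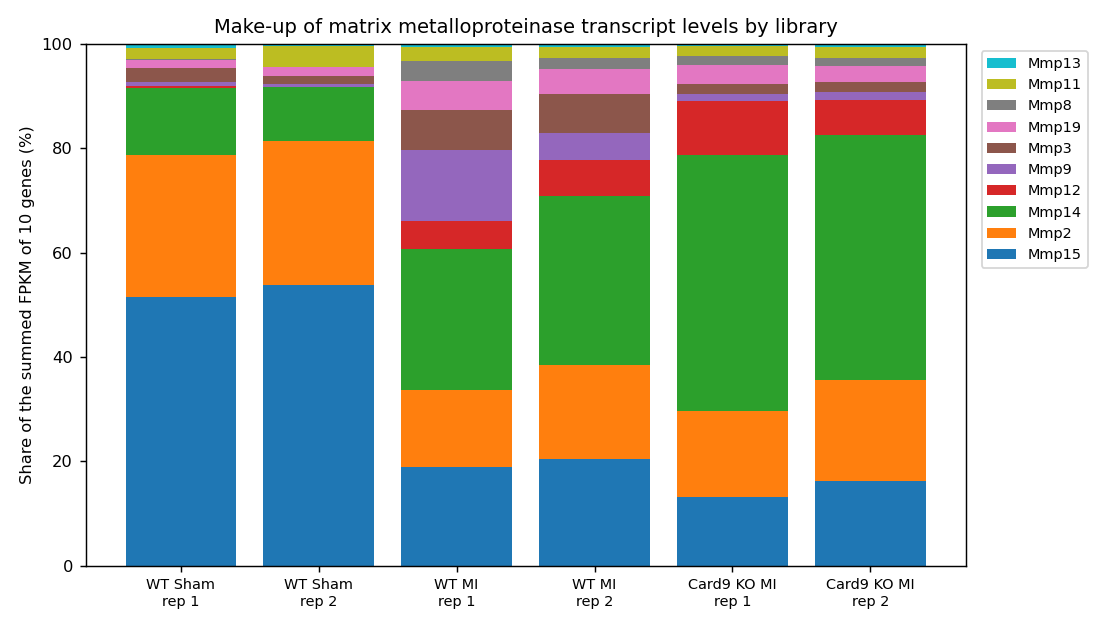
Share of each matrix metalloproteinase gene in the summed FPKM of the 10 genes, in percent, with 1 bar per library (rep, replicate). *Mmp15* (lowest segment) is the widest segment in the WT Sham bars, at 51.5% and 53.8%, and *Mmp14* the widest in all 4 infarct bars, at 26.9% to 49.0%.

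By level, the order in WT Sham was *Mmp15*, *Mmp2*, *Mmp14*, *Mmp11*, *Mmp3*, *Mmp19*, *Mmp9*, *Mmp13*, *Mmp12* and *Mmp8*. Among neighbours in this order, the libraries of *Mmp11* and *Mmp3*, of *Mmp3* and *Mmp19*, and of *Mmp9* and *Mmp13* overlapped. In WT MI the order was *Mmp14*, *Mmp15*, *Mmp2*, *Mmp9*, *Mmp3*, *Mmp12*, *Mmp19*, *Mmp8*, *Mmp11* and *Mmp13*, where *Mmp15* overlapped with *Mmp2*, *Mmp9* with *Mmp3*, *Mmp12* with *Mmp19*, and *Mmp8* with *Mmp11*. Under the knockout label it was *Mmp14*, *Mmp2*, *Mmp15*, *Mmp12*, *Mmp19*, *Mmp11*, *Mmp3*, *Mmp8*, *Mmp9* and *Mmp13*, and *Mmp8* overlapped with both *Mmp3* and *Mmp9*. *Mmp13* was the lowest of the 10 in both infarct groups, whereas *Mmp12* and *Mmp8* were the lowest in WT Sham.

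In WT MI against WT Sham, 6 of the 10 genes rose, 1 fell and 3 were not called. Over all genes tested, 27.7% were called higher and 9.39% lower. The members' median log2 fold change was 2.16, beside 0.19 for all genes. *Mmp3*, *Mmp8*, *Mmp9*, *Mmp12*, *Mmp14* and *Mmp19* rose, and *Mmp15* fell. Between *Card9* KO MI and WT MI, 0 of the 10 were called higher and 2 were called lower, *Mmp3* and *Mmp9*, where 0.816% of all genes were called higher and 0.587% lower. At an unadjusted p below 0.05, *Mmp14* was higher and the same *Mmp3* and *Mmp9* were lower in limma, where 11.5% of all genes were higher and 8.57% lower by that rule. The members' median log2 fold change was −0.17, beside 0.04 for all genes. In *Card9* KO MI against WT Sham, 7 rose, 1 fell and 2 were not called, beside 34.8% and 14.3% of all genes, and the median was 1.07 beside 0.24. Both comparisons with WT Sham share the same 2 sham libraries. *Mmp8*, *Mmp9*, *Mmp12* and *Mmp13* were below 1 FPKM in both sham libraries and passed the filter only through infarct libraries. This left little room for a fall against WT Sham, also for genes of the lists below with such sham levels. The members were chosen with earlier results of these data known, so their counts and medians are descriptions. The shares of all genes given here also belong beside the counts of each list below.

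**Figure D2:**
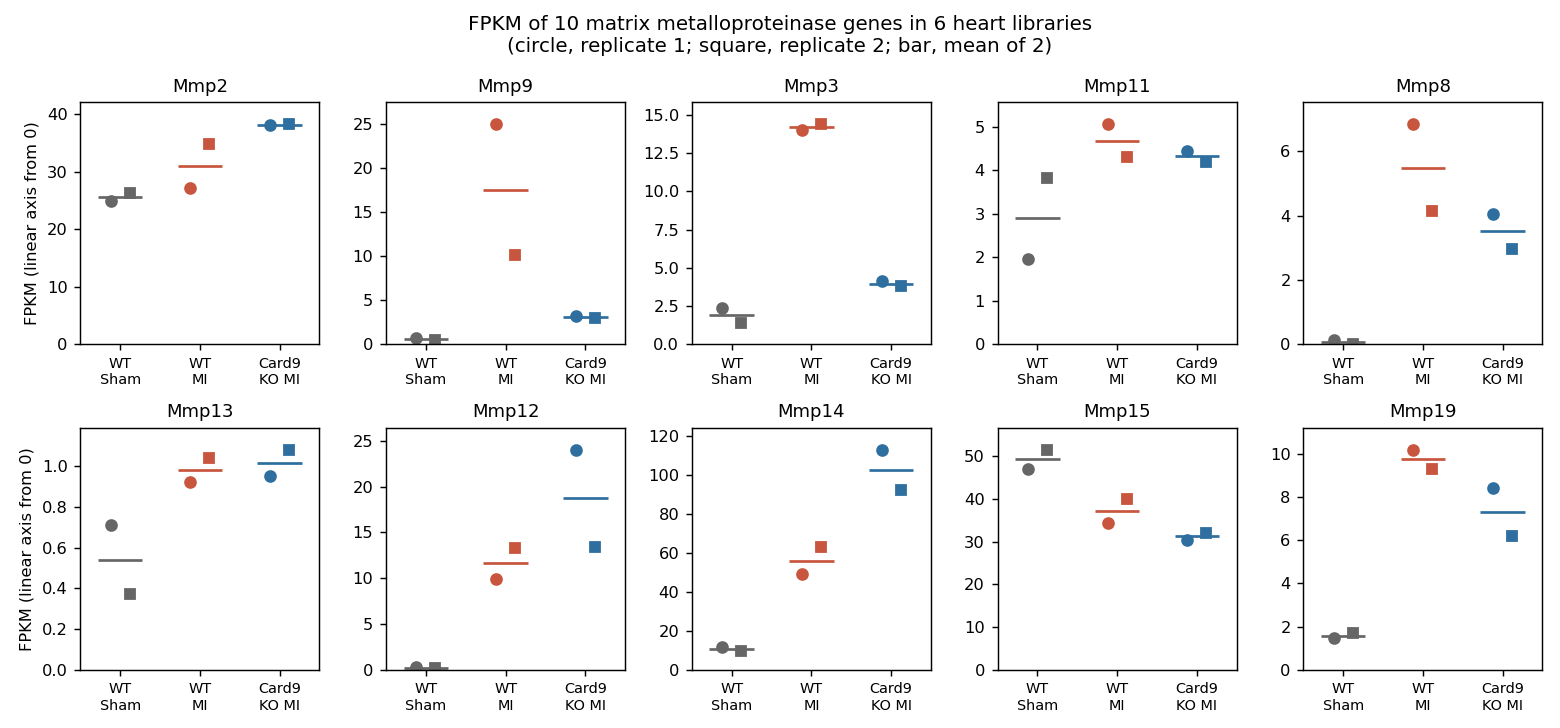
FPKM (vertical axes, linear from 0) of the 10 genes by group, with a circle for replicate 1, a square for replicate 2 and a bar for the mean of 2 libraries. *Mmp3* and *Mmp9* stand highest in WT MI, at 14.0 and 14.37 FPKM and at 24.91 and 10.15 FPKM, while *Mmp14* and *Mmp2* stand highest in *Card9* KO MI.

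Among the gelatinases, which cut denatured collagen and the type IV collagen of basement membranes, *Mmp9* was called in all 3 comparisons and *Mmp2* in 1. *Mmp9* (NCBI gene 17395, mm9 chr2:164766280-164781350, plus strand), the gelatinase that neutrophils and macrophages produce, had an FPKM of 0.69 and 0.51 in the sham libraries, 24.91 and 10.15 in the WT MI libraries, and 3.26 and 2.94 in those labelled *Card9* KO MI. The groups did not overlap, and the first WT MI library stood far above the second. In estimated fragments these were 318 and 126, with exact Poisson 95% intervals of 22.3 to 27.8 and 8.45 to 12.1 FPKM, so the WT MI replicates differed by more than counting error. Mean levels were 0.60 ± 0.127, 17.5 ± 10.4 and 3.10 ± 0.226 FPKM (SD, n = 2). The log2 fold change was 3.41 (SE 0.35, adjusted p = 3.4e-04) in WT MI against WT Sham and −2.05 (95% interval −2.87 to −1.23, adjusted p = 0.0451) in *Card9* KO MI against WT MI. Without the first WT MI library the second value was −1.44 (adjusted p = 0.167), and without the second it was −2.66 (adjusted p = 0.0216). Against WT Sham, *Mmp9* was still higher in *Card9* KO MI, by 1.36 on the log2 scale (adjusted p = 0.0145), a call lost with an added FPKM of 5 (0.53, adjusted p = 0.133), with quantile normalization (0.87, adjusted p = 0.0748) and without WT Sham replicate 2 or either *Card9* KO MI library (adjusted p from 0.0503 to 0.0747).

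*Mmp2* (NCBI gene 17390, mm9 chr8:95351227-95377316, plus strand), the gelatinase made mainly by fibroblasts and other stromal cells, was abundant throughout. Its FPKM was 24.88 and 26.38 in the sham libraries, 27.22 and 34.74 in the WT MI libraries, and 38.06 and 38.24 in those labelled *Card9* KO MI. The 3 groups were ordered without overlap, although the lower WT MI library lay close to the sham libraries. The log2 fold change was 0.25 between WT MI and WT Sham (95% interval −0.05 to 0.56, adjusted p = 0.166) and 0.30 between *Card9* KO MI and WT MI (95% interval −0.00 to 0.61, adjusted p = 0.251), and neither was called. Against WT Sham, *Mmp2* of the knockout libraries rose by 0.56 (SE 0.13, adjusted p = 0.00941), which was 0.31 (adjusted p = 0.0886) with upper-quartile scaling and 0.36 (adjusted p = 0.0547) with quantile normalization.

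*Mmp3*, *Mmp8*, *Mmp12* and *Mmp13* lie on the plus strand of chromosome 9 in one cluster of metalloproteinase genes, in the order *Mmp13* (mm9 chr9:7272514-7283333), *Mmp12* (chr9:7344381-7369499), *Mmp3* (chr9:7445822-7455972) and *Mmp8* (chr9:7558429-7568486). Their promoters are shown because genes of 1 cluster differed in level and in the infarct groups. The 80 bases before an annotated start of each gene, 5′ to 3′, are from RefSeq on GRCm38.p6, at chr9:7272434-7272513 for *Mmp13*, chr9:7347294-7347373 for *Mmp12*, chr9:7445742-7445821 for *Mmp3* and chr9:7558349-7558428 for *Mmp8*, all on the plus strand. For *Mmp12* this is the downstream start. Capitals mark a match to TGANTCA, the core of the site of AP-1, the FOS and JUN transcription factors.
Mmp13: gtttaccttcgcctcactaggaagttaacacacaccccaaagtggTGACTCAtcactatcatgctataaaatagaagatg
Mmp12: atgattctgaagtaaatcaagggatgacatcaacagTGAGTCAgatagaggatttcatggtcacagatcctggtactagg
Mmp3: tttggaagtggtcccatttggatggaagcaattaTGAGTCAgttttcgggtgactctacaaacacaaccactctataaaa
Mmp8: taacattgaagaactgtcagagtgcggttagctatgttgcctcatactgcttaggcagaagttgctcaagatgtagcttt
*Mmp12* has a second, upstream start in RefSeq, not printed here, whose window held no match. The match began 35 bases before the start of *Mmp13*, 44 before the downstream start of *Mmp12* and 46 before that of *Mmp3*. Both strands of windows of 300 bases, from 250 before to 50 after a start, were searched, and 7.81% of all 32851 windows held the letters. Of the 8 windows found for 7 of the 10 genes (*Mmp3*, *Mmp8*, *Mmp11*, *Mmp12*, *Mmp13*, *Mmp14* and *Mmp15*), 3 held them. The letters TATAAA, in 13.6% of all windows, were present in 4 of the 8, near the starts of *Mmp3*, *Mmp8*, *Mmp13* and the downstream start of *Mmp12*, on the minus strand for *Mmp8*. Matches of letters are descriptions and do not show binding, and of the 3 genes that hold TGANTCA here, 1 was called lower in *Card9* KO MI, 1 was not called and 1 stayed near the detection limit.

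*Mmp3* (NCBI gene 17392), stromelysin-1, which cuts proteoglycans, fibronectin and basement membrane and activates other proenzymes of the family, rose in WT MI and was called lower in *Card9* KO MI than in WT MI. Its FPKM was 2.39 and 1.42 in the sham libraries, 14.0 and 14.37 in the WT MI libraries, and 4.12 and 3.78 in those labelled *Card9* KO MI. The WT MI libraries agree within sampling noise, at an estimated 101 fragments each, and stood far above both other groups. Means were 1.91 ± 0.686, 14.2 ± 0.262 and 3.95 ± 0.240 FPKM (SD, n = 2), a 7.45-fold ratio between WT MI and WT Sham and a ratio of 0.279 between *Card9* KO MI and WT MI. The log2 fold changes were 2.41 (SE 0.19, adjusted p = 1.3e-04) and −1.62 (95% interval −2.07 to −1.17, adjusted p = 0.0171). With each library left out in turn the second value stayed between −1.67 and −1.57, but its adjusted p rose to 0.0643 to 0.166 without any 1 of the 4 infarct libraries. *Mmp3* in *Card9* KO MI still lay above WT Sham, by 0.79 (adjusted p = 0.0116), a difference of 0.34 (adjusted p = 0.178) with quantile normalization and of 0.74 (adjusted p = 0.0652) without *Card9* KO MI replicate 1.

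The other stromelysin of the list, *Mmp11* (stromelysin-3, NCBI gene 17385, mm9 chr10:75385967-75400678, minus strand), was low and was not called in any comparison. It had an FPKM of 1.97 and 3.81 in the sham libraries, 5.05 and 4.29 in the WT MI libraries, and 4.44 and 4.19 in those labelled *Card9* KO MI. The sham libraries lay below the infarct libraries, while the infarct groups overlapped. The log2 fold change against WT Sham was 0.58 in WT MI (adjusted p = 0.0984) and 0.49 in *Card9* KO MI (adjusted p = 0.13), and without WT Sham replicate 2 these became 0.93 (adjusted p = 0.0217) and 0.84 (adjusted p = 0.0211). Between the infarct groups it was −0.09, with a 95% interval of −0.65 to 0.47. *Mmp11* shares exon bases with the gene model *Gm867* on the same strand, and how the counting treated shared bases is not given in the sources used here.

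Of the collagenases, which open the triple helix of fibrillar collagen, *Mmp8* appeared with the infarct and *Mmp13* stayed near the detection limit. *Mmp8* (NCBI gene 17394), the neutrophil collagenase, had an FPKM of 0.13 in one WT Sham library and was not listed in the other, which was taken as 0. It reached 6.83 and 4.13 in the WT MI libraries and 4.06 and 2.95 in those labelled *Card9* KO MI, so the infarct libraries stood far above the sham libraries and the higher knockout library lay just below the lower WT MI library. The sham values correspond to 1 and 0 estimated fragments, against 107 over both WT MI libraries, a ratio of 83.2 with a counting interval of 14.6 to 3317. The corresponding ratio for *Card9* KO MI was 53.6, with an interval of 9.33 to 2147. *Mmp8* rose in both infarct groups (log2 fold change 2.58, adjusted p = 3.2e-04, and 2.07, adjusted p = 5.0e-04, on the log2(FPKM + 1) scale, which understates low genes). Between the infarct groups the log2 fold change was −0.50 (95% interval −1.11 to 0.10, adjusted p = 0.33) and was not called.

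*Mmp13* (NCBI gene 17386), collagenase-3, the main interstitial collagenase of rodents, had 0.71 and 0.37 FPKM in WT Sham, 0.92 and 1.04 in the WT MI libraries and 0.95 and 1.08 in those labelled *Card9* KO MI. These are an estimated 3 to 12 fragments in each library, and the infarct groups overlapped. No comparison called it, with log2 fold changes of 0.37 in WT MI against WT Sham (adjusted p = 0.256), 0.03 in *Card9* KO MI against WT MI (95% interval −0.52 to 0.57) and 0.40 in *Card9* KO MI against WT Sham (adjusted p = 0.20). All 3 turned below 0 with quantile normalization. The 95% counting intervals of all 6 libraries overlapped, from 0.0768 to 1.09 FPKM in the lowest and 0.562 to 1.90 in the highest, so a difference was not detectable at this depth.

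*Mmp12* (NCBI gene 17381), the macrophage elastase, was almost absent from the sham-operated heart and rose in both infarct groups. Its FPKM was 0.26 and 0.18 in the sham libraries, 9.93 and 13.29 in the WT MI libraries, and 24.03 and 13.38 in those labelled *Card9* KO MI. The lower knockout library was level with the higher WT MI library, and the first knockout library stood alone above the rest. In estimated fragments the knockout libraries held 370 and 199, with 95% counting intervals of 21.6 to 26.6 and 11.6 to 15.4 FPKM, so they differed by more than counting error. WT Sham held 5 estimated fragments in all, and the ratio of fragments to WT Sham was 51.6 (counting interval 21.9 to 160) in WT MI and 83.6 (35.6 to 259) in *Card9* KO MI. Log2 fold changes were 3.36 (SE 0.27, adjusted p = 1.3e-04) and 3.96 (adjusted p = 3.4e-05) against WT Sham. Between the infarct groups it was 0.60 (95% interval −0.02 to 1.23, adjusted p = 0.265), with 0.20 without *Card9* KO MI replicate 1 and 1.00 without replicate 2. *Mmp12* shares exon bases with *Mmp1b* on the other strand, which was listed in no library.

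The membrane-type enzymes among the 10 members, *Mmp14* and *Mmp15*, went in opposite directions against WT Sham. *Mmp14* (NCBI gene 17387, mm9 chr14:55050441-55060095, plus strand), the membrane-type 1 enzyme, which cuts collagen at the cell surface and activates pro-MMP2, had an FPKM of 11.77 and 9.87 in the sham libraries, 49.13 and 63.26 in the WT MI libraries, and 113.18 and 92.56 in those labelled *Card9* KO MI. The 3 groups were well apart, and the gap between replicates was smaller than the steps between groups. Means were 10.8 ± 1.34, 56.2 ± 9.99 and 103 ± 14.6 FPKM (SD, n = 2), which is 5.19-fold between WT MI and WT Sham and 1.83-fold between *Card9* KO MI and WT MI. *Mmp14* rose in WT MI by 2.27 on the log2 scale (SE 0.16, adjusted p = 7.3e-05) and in *Card9* KO MI by 3.13 (adjusted p = 1.4e-05) against WT Sham. Between the infarct groups the log2 fold change was 0.86 (95% interval 0.49 to 1.24), which missed the threshold (adjusted p = 0.052 in limma). With an added FPKM of 5, a mean FPKM of at least 5, quantile normalization, a scaling that omits the 100 most abundant genes or only genes listed in all libraries, it was called (adjusted p from 0.0338 to 0.05). When 1 infarct library was omitted it stayed between 0.69 and 1.04 and was not called (adjusted p from 0.0751 to 0.289).

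*Mmp15* (NCBI gene 17388, mm9 chr8:97876168-97898193, plus strand), the membrane-type 2 enzyme, was the one member that fell. Its FPKM was 47.06 and 51.57 in the sham libraries, 34.43 and 39.99 in the WT MI libraries, and 30.39 and 32.1 in those labelled *Card9* KO MI, with each group below the one before and no overlap. The log2 fold change was −0.40 (SE 0.11, adjusted p = 0.0271) in WT MI and −0.64 (adjusted p = 0.00254) in *Card9* KO MI against WT Sham, and −0.24 (95% interval −0.50 to 0.02, adjusted p = 0.286) between the infarct groups. The first of these calls was lost without the trended spread (adjusted p = 0.0636) and without WT Sham replicate 1, WT Sham replicate 2 or WT MI replicate 1 (adjusted p from 0.0501 to 0.164). Cardiomyocyte markers fell in the same libraries, with 10 of 14 called lower in WT MI and 13 of 14 in *Card9* KO MI against WT Sham, among them *Myl2* with a log2 fold change of −1.24 in WT MI. In such bulk tissue, fewer cells of a type and less RNA per cell cannot be told apart, and the part of the muscle markers in the result for *Mmp15* was not tested.

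*Mmp19* (NCBI gene 58223, mm9 chr10:128228009-128237880, plus strand), a secreted enzyme with substrates in basement membranes, rose in both infarct groups. Its FPKM was 1.47 and 1.7 in the sham libraries, 10.2 and 9.33 in the WT MI libraries, and 8.41 and 6.21 in those labelled *Card9* KO MI. All infarct libraries lay above the sham libraries, and both WT MI libraries lay above those labelled *Card9* KO MI. The log2 fold change was 2.06 (SE 0.18, adjusted p = 1.8e-04) in WT MI and 1.67 (adjusted p = 2.5e-04) in *Card9* KO MI against WT Sham, and −0.39 (95% interval −0.81 to 0.04, adjusted p = 0.289) between the infarct groups. *Mmp19* overlaps exons of *1110012D08Rik* on the other strand, and whether counting used strand is not given in the sources used here.

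**Figure D3:**
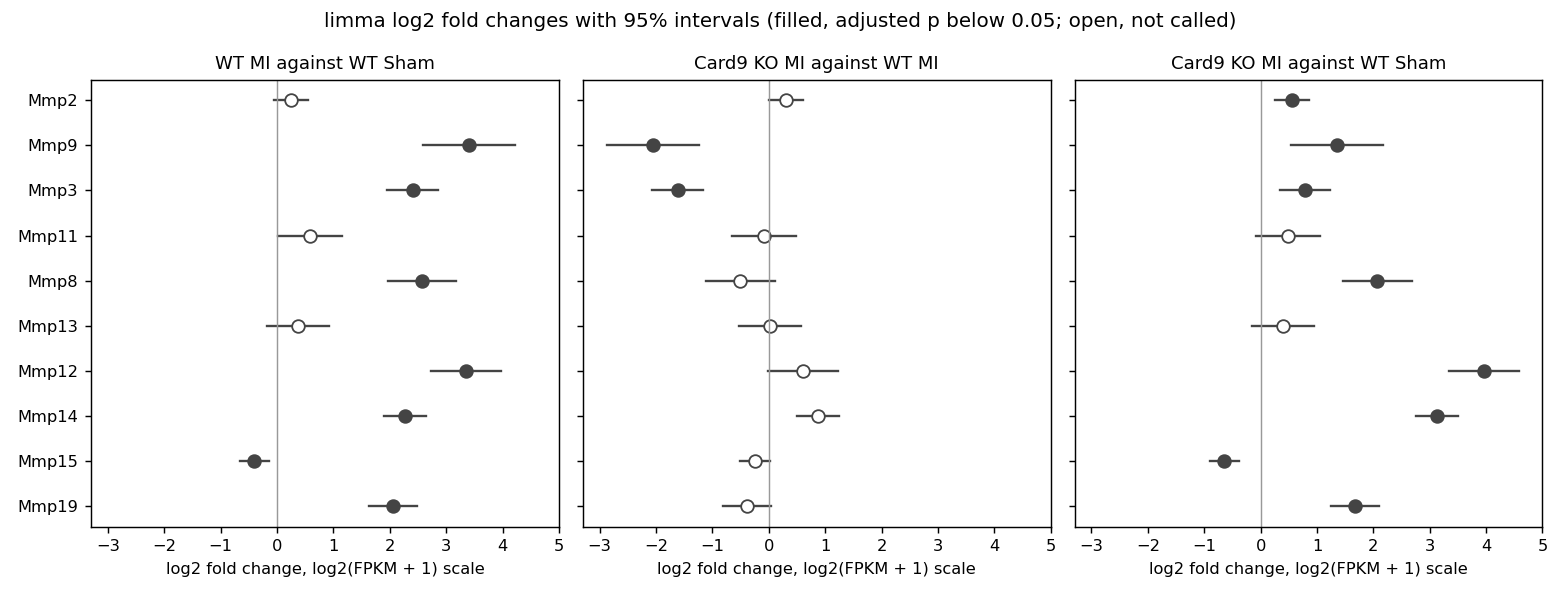
limma log2 fold changes on the log2(FPKM + 1) scale (horizontal axes) with 95% intervals for the 10 genes in the 3 comparisons, filled where the adjusted p was below 0.05. Against WT Sham, 6 genes were called higher in WT MI and 7 with the knockout label, with *Mmp15* lower in both, and between the infarct groups *Mmp9* and *Mmp3* were called lower.

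The scale of the comparison moved with the choice of normalization. With upper-quartile scaling the median log2 fold change of all genes in WT MI against WT Sham went from 0.19 to 0.00, and with quantile normalization to −0.09. The rises of *Mmp3*, *Mmp8*, *Mmp9*, *Mmp12*, *Mmp14* and *Mmp19* and the fall of *Mmp15* in that comparison were called under both, and also with scaling without the 100 most abundant genes, where the median was 0.06. There, all genes split into 3637 higher and 1232 lower calls as deposited, 2603 and 2159 with upper-quartile scaling, and 2198 and 2447 with quantile normalization. The corresponding split of the knockout libraries against WT Sham was 4569 and 1875, then 3230 and 2884, and 2755 and 3444.

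Calls of *Mmp3* and *Mmp9* between the infarct groups changed with the library left out. Calls over all genes in that comparison also became fewer in each of these fits. Removal of WT MI replicate 1 took both *Mmp3* and *Mmp9* out of the calls, as did removal of either *Card9* KO MI library, and removal of WT MI replicate 2 left *Mmp9* alone. Without either sham library, which changes only the shared spread, *Mmp3* was called and *Mmp9* was not (adjusted p = 0.07 and 0.0704). The signs of *Mmp2*, *Mmp3*, *Mmp8*, *Mmp9*, *Mmp12*, *Mmp14*, *Mmp15* and *Mmp19* held in each of these fits, while *Mmp11* and *Mmp13* crossed 0.

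**Figure D4:**
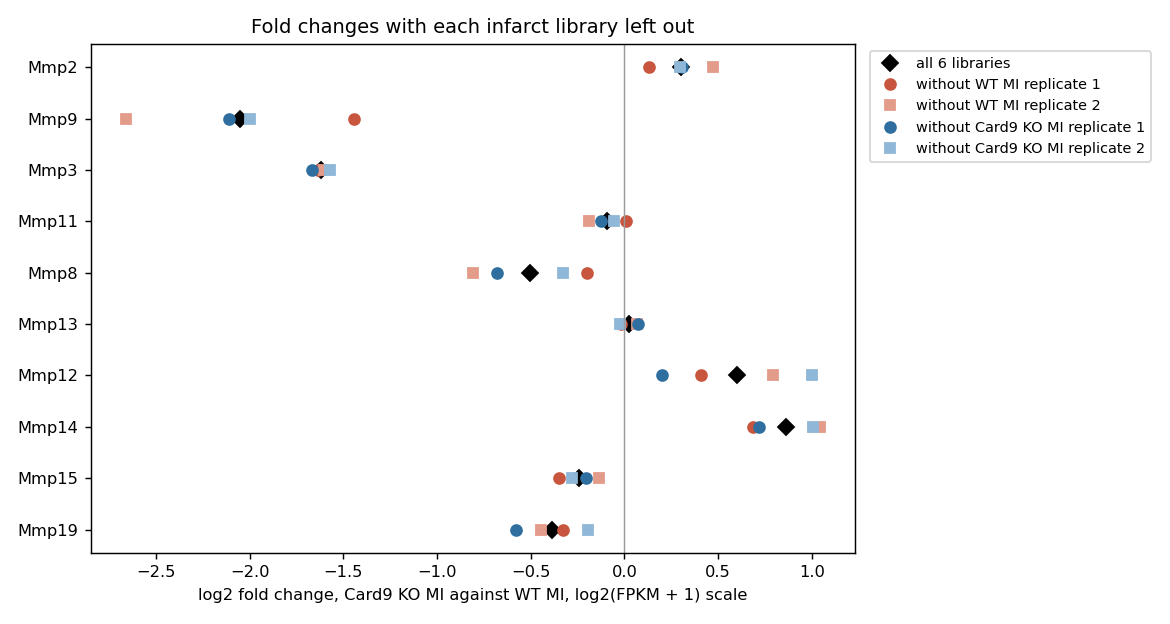
log2 fold change of *Card9* KO MI against WT MI (horizontal axis, log2(FPKM + 1) scale) for the 10 genes with all 6 libraries (diamond) and with each infarct library left out. *Mmp9* runs from −2.66 to −1.44 and *Mmp12* from 0.20 to 1.00, while *Mmp3* stays between −1.67 and −1.57.

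The summed neutrophil markers, *Mmp9* and *Mmp8* were each higher in all infarct libraries than in the sham libraries. The summed FPKM of the list, of which 15 of 18 genes were listed, was 11.08 and 10.07 in the sham libraries, 271.87 and 136.28 in the WT MI libraries, and 106.88 and 78.17 in those labelled *Card9* KO MI. The first WT MI library, with the higher *Mmp9* and *Mmp8*, also had 1.99 times the marker sum of the second, and 11 of 15 markers were higher in it. All 12 markers tested rose in WT MI, led by *S100a9* (log2 fold change 4.75) and *S100a8* (4.22), which encode calprotectin, while *Ly6g*, *Elane* and *Camp* were listed in no library and *Mpo*, *Ngp* and *Ltf* reached at most 0.09, 0.22 and 0.27 FPKM. Between *Card9* KO MI and WT MI, limma called 0 of the 12 in either direction, 7 were lower and 1 higher at an unadjusted p below 0.05, and the median log2 fold change was −0.74 beside 0.04 for all genes. The part of the markers in the results for *Mmp8* and *Mmp9* was not tested.

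The sums of macrophage and fibroblast markers were higher in *Card9* KO MI than in WT MI, as was *Mmp14*, though most markers of both lists were not called between these groups. The 24 macrophage markers summed to 477 and 409 FPKM in WT Sham, 1710 and 2116 in the WT MI libraries and 3262 and 2377 in those labelled *Card9* KO MI, with 22 of 24 higher in the first knockout library than in the second. Between the infarct groups 1 of 24 was called higher (*Cx3cr1*, log2 fold change 1.09) and 2 lower, *Lyve1* (−1.11) and *Chil3* (−2.36), which encodes a chitinase-like protein of alternatively activated macrophages and had 86.47 and 57.22 FPKM in WT MI against 13.71 and 12.11 in *Card9* KO MI. The 14 fibroblast markers summed to 987 and 977 FPKM in WT Sham, 1881 and 2395 in the WT MI libraries and 3546 and 3424 in those labelled *Card9* KO MI, and 4 of 14 were called higher and 1 lower between the infarct groups, with *Postn* (1.57), the matricellular protein periostin, and *Thy1* (1.16) higher and *Gsn* (−0.57) lower. Neither list moved as a whole at an unadjusted p below 0.05. By that rule 10 of the 24 macrophage markers were higher and 3 lower between the infarct groups in limma. Of the 14 fibroblast markers, 7 were higher and 3 lower. By sign alone, 10 of these 14 had a log2 fold change above 0 and 4 below 0. Most of the fibroblast sum in the infarct libraries came from *Col1a1*, *Col1a2*, *Col3a1* and *Postn*. The part of either cell type in these results was not tested.

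**Figure D5:**
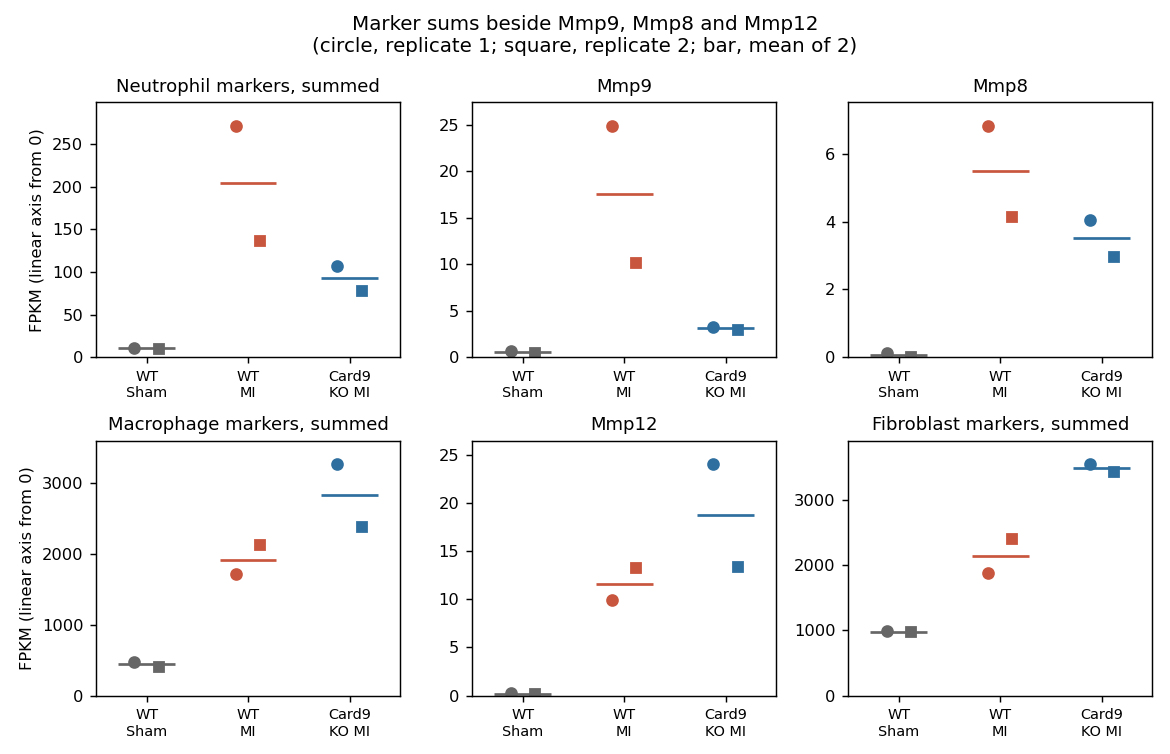
Summed FPKM of neutrophil, macrophage and fibroblast marker lists beside the FPKM of *Mmp9*, *Mmp8* and *Mmp12* (linear axes from 0, circle for replicate 1, square for replicate 2, bar for the mean of 2 libraries). WT MI replicate 1 stands highest for the neutrophil sum (271.87), *Mmp9* and *Mmp8*, and *Card9* KO MI replicate 1 highest for the macrophage sum (3262) and *Mmp12*.

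Markers of other cell types were summed in the same way. Endothelial markers summed to 393 to 476 FPKM over all 6 libraries, and T and B cell markers to 4.83 to 9.70. Smooth muscle markers summed to 141 and 175 in the sham libraries, 239 and 228 in the WT MI libraries, and 476 and 452 in those labelled *Card9* KO MI, with *Tagln* and *Acta2*, which activated myofibroblasts also express, called higher between the infarct groups (1.47 and 1.19). Adipocyte markers summed to 0.99 to 16.01 FPKM with no order by group, and erythroid markers to 1053 and 479 in WT Sham, 1786 and 2922 in the WT MI libraries and 1778 and 928 in those labelled *Card9* KO MI. Of 4 erythroid markers tested, 3 rose in WT MI against WT Sham, led by the globin genes *Hba-a1* (1.77) and *Hbb-b1* (1.43). In *Card9* KO MI against WT MI, limma called 0 of the 4, which had a median of −0.80, 1 was lower at an unadjusted p below 0.05, and the part of blood content in the results was not tested.

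The inhibitors of the family were led by *Timp1* after infarction. The summed FPKM of *Timp1* to *Timp4* was 87.1 and 95.4 in the sham libraries, 396 and 355 in the WT MI libraries, and 360 and 305 in those labelled *Card9* KO MI. Divided by the sum of the 10 metalloproteinases, this was 0.954 and 0.996 in the sham libraries. The ratio was 2.17 and 1.82 in the WT MI libraries, and 1.56 and 1.55 in those labelled *Card9* KO MI. The groups did not overlap. Once *Mmp14* is left out, the divisor is smaller under the knockout label (117.72 and 104.87 FPKM) than for the WT MI libraries (133.49 and 131.33 FPKM). The lower ratio under the knockout label therefore depended on *Mmp14*. Of the 5 inhibitor genes tested in WT MI against WT Sham, *Timp1* (log2 fold change 5.46, adjusted p = 9.9e-07) and *Timp3* (0.34, adjusted p = 0.0336) rose, *Timp4* fell (−1.11, adjusted p = 0.00352), and *Timp2* (0.26) and the membrane-anchored inhibitor *Reck* (−0.50) were not called. Between *Card9* KO MI and WT MI, limma called 0 of the 5, and at an unadjusted p below 0.05 *Timp2* (0.53) was higher and *Timp1* (−0.34) and *Timp3* (−0.27) were lower.

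Besides the 10 genes, 13 others of the family were looked for. Of these 8 were listed in any library and 5 were tested, and *Mmp23* and *Mmp27* rose in WT MI while *Mmp17*, *Mmp24* and *Mmp28* were not called. *Mmp23* had an FPKM of 3.11 and 2.55 in the sham libraries, 8.86 and 10.01 in the WT MI libraries, and 16.32 and 15.14 in those labelled *Card9* KO MI, with groups that did not overlap and log2 fold changes of 1.45 (adjusted p = 3.4e-04) and then 0.68 (adjusted p = 0.0729). *Mmp27* was not listed in either sham library, and stood at 0.75 and 1.39 in WT MI and at 1.97 and 1.32 in *Card9* KO MI. At an unadjusted p below 0.05, *Mmp23* and *Mmp28* were higher between the infarct groups. *Mmp1a*, *Mmp1b*, *Mmp7*, *Mmp20* and *Mmp21* were listed in no library, and *Mmp10*, *Mmp16* and *Mmp25* stayed below 1 FPKM.

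Proenzymes of the family are opened by plasmin, furin and related proteases. Of 8 genes tested for activation of proenzymes, 6 rose and 2 fell in WT MI. *Plaur*, the urokinase receptor, was among those that rose (log2 fold change 2.64), and *Pcsk6* (−0.74) and *Bsg* (−0.59) were those that fell. Of these 8, limma called 0 between the infarct groups, and 2 were higher and 1 lower at an unadjusted p below 0.05. Among 18 related ADAM and ADAMTS proteases, 11 rose in WT MI, with *Adam8* at 0.41 and 0.65 FPKM in WT Sham against 38.97 and 40.91 in WT MI (4.75), and 0 were called between the infarct groups, where 4 were higher at an unadjusted p below 0.05. All 6 tested genes of the cathepsin and other matrix-degrading list rose in WT MI, led by *Ctss* (3.27) and *Ctsb* (1.47), and 0 were called between the infarct groups, where 3 were higher at an unadjusted p below 0.05.

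Transcripts of the substrates were higher in both infarct groups. Of 13 matrix genes whose products metalloproteinases cut, 12 rose in WT MI, led by *Tnc* (5.09), tenascin-C, and *Fn1* (3.54), fibronectin. In *Card9* KO MI against WT MI, 7 of 13 were called higher and 0 lower, with a median log2 fold change of 0.68 beside 0.04 for all genes. *Col1a2* had an FPKM of 205.28 and 290.3 in the WT MI libraries and 537.84 and 506.39 in those labelled *Card9* KO MI (1.09, adjusted p = 0.0274), and *Col1a1*, the other chain of type I collagen, 359.07 and 515.63 against 931.6 and 870.28 (1.06, adjusted p = 0.0337). *Col1a1*, *Col1a2* and *Col3a1* are also in the fibroblast list, so these counts are not separate. Of 14 cytokines and transcription factors known to induce genes of the family, 8 rose and 1 fell in WT MI. Between the infarct groups limma called 0, while 2 were higher and 1 lower at an unadjusted p below 0.05. The shares of all genes by that rule were 11.5% and 8.57%. *Il1b*, the cytokine interleukin-1 beta, had 0.96 and 1.0 FPKM in WT Sham, 8.65 and 9.47 in the WT MI libraries and 13.6 and 9.2 in those labelled *Card9* KO MI, and *Jun* fell by 0.45 in WT MI against WT Sham. Between the infarct groups *Jun* was 1 of the 2 higher by the unadjusted rule (log2 fold change 0.70, limma adjusted p = 0.0568).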

How the data were processed

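Heart tissue from below the ligature gave 6 RNA libraries, 2 in each of 3 groups taken from the sample labels. The authors enriched mRNA, filtered the reads, mapped them to mm9 with BWA and Bowtie2, and deposited FPKM values keyed by NCBI gene number, to 2 decimals, for genes above 0. The gene annotation behind the FPKM values and the use of strand are not given in the sources used here. FPKM is relative to the fragments of its library, so large changes of a few abundant genes shift all others.

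Genes not listed in a library were set to 0. Symbols were matched through RefSeq tables for 17390 of 17441 genes, and positions are from the GENCODE annotation of mm9. The study screened genes with a method that gives no p-value. Here limma 3.58.1 in R 4.3.3 was used (lmFit, eBayes with trend, 3 groups in one fit, log2(FPKM + 1), 13120 genes), and the same code was tested on simulated data. Depth was estimated from the spacing of low FPKM values of 2898 genes with 1 annotated transcript. With it 71.1% to 78.9% of low values lay within 0.15 of a whole fragment, so counts were not rebuilt, and counting intervals (exact Poisson for a level, exact conditional for a ratio) cover counting error only. Replicates shared 0.706% to 1.09% identical values and were counted separately. Promoter windows and sequences are from RefSeq (GRCm38.p6), with none found for *Mmp2*, *Mmp9* and *Mmp19*. Python 3.11.15 with numpy 2.4.6, pandas 2.3.3, scipy 1.17.1 and matplotlib was used.

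The members and the lists of other metalloproteinases, inhibitors, activators, ADAM and ADAMTS proteases, other matrix-degrading proteases, substrates, inducers and cell type markers were chosen with earlier results of these data known. Named are the 10 members, the other *Mmp* genes, *Timp1* to *Timp4*, *Reck* and *Card9*, at most the 2 called genes of each other list with the largest log2 fold change in each direction, and the markers at 0. A gene of the list of activators is not reported here. *Mpo*, *Ngp*, *Ltf* and *Col3a1* were named after their values were seen. Each result was recomputed without the filter or with a filter on the mean (FPKM of 5), with 0.1 or 5 added in place of 1, with quantile normalization, upper-quartile scaling or a scaling that omits the 100 most abundant genes, with eBayes lacking the trend, with a block for the replicate number, on the genes listed in all libraries, on only the groups compared, with a further threshold of 2-fold, and with each library left out.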

Additional observations from a re-analysis of the deposited data

How the results depend on the processing

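With 2 libraries a group, leaving 1 out assumes that the lone library varies like the others, and low genes rest on few fragments (*Mmp13* on 3 to 12 in each library). *Mmp8* could not be fitted on genes listed in all libraries, nor *Mmp8*, *Mmp11* and *Mmp13* with a mean FPKM of at least 5, so counts there are out of 9 and 7 members. Of the members' log2 fold changes under the alternatives, 457 kept direction and side of the threshold, 28 lost a call, 7 gained one and 6 turned sign, and of the counts 85 stayed within 1.5 times and 23 did not. Where no value shows the cause, the cause was not tested.

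In WT MI against WT Sham, the count of members called lower was 0, in place of 1, without the trended spread and with a fold change of at least 2, and 0 to 1 with a library left out. In *Card9* KO MI against WT MI, the count called higher was 1 (*Mmp14*), in place of 0, with an added FPKM of 5, a mean FPKM of at least 5, quantile normalization, a scaling that omits the 100 most abundant genes, and genes listed in all libraries. The count called lower was 1, in place of 2, with an added FPKM of 0.1, without the trended spread and with only the groups compared, 0 without the filter, and 0 to 1 with a library left out. Over all genes that comparison had 107 higher and 77 lower calls, and 7 and 5 without the filter, where 17441 genes were adjusted for. In *Card9* KO MI against WT Sham, the count called higher was 4, in place of 7, with quantile normalization, and the count called lower was 0, in place of 1, with a fold change of at least 2.

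*Mmp13* turned sign with quantile normalization, to −0.0674 in WT MI against WT Sham, −0.0624 in *Card9* KO MI against WT MI and −0.13 in *Card9* KO MI against WT Sham. Between the infarct groups, with a library left out, *Mmp13* ran from −0.0214 to 0.0717 and *Mmp11* from −0.1873 to 0.0064, below 0 for *Mmp13* in the fits without the first WT MI or the second *Card9* KO MI library and above 0 for *Mmp11* without the first WT MI library.

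The replicate numbers did not pair the libraries, since deviations of same-numbered libraries from their group means had correlations of 0.0024, −0.0083 and 0.0204. With the replicate number as a block, 1 member, in place of 2, was called lower in *Card9* KO MI against WT MI, *Mmp9* having an adjusted p of 0.0557, and over all genes 45 were called higher and 26 lower, in place of 107 and 77.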
